A study of Homo sapiens with 8 samples.

Results

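The genes described here are the tumour necrosis factor (TNF) superfamily ligands with a TNFSF symbol, the receptors with a TNFRSF symbol and the numbered TRAF adaptor proteins. They were chosen by symbol alone, from the RefSeq transcript given for each probe, and comprised 47 of the 41000 gene probes of the array and 38 genes, of which 29 had 1 probe and 9 had 2 probes. By role, 11 genes were ligands, 20 were receptors and 7 were TRAF adaptors. TNFRSF8, which encodes CD30, was among the receptors.

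TNF superfamily ligands are membrane-bound or shed trimeric proteins that cluster their receptors on neighbouring cells. Receptors with a cytoplasmic death domain can start caspase activation, decoy receptors bind ligand without signalling, and the other receptors recruit TRAF proteins to activate NF-κB and MAP kinases. CD30 is the surface antigen by which the tumour cells of classical Hodgkin lymphoma are recognised, and constant NF-κB activity is a known feature of these cells. MicroRNAs guide Argonaute proteins such as Ago2 to matching sites in mRNAs, so mRNAs that carry such sites are recovered with Ago2 in an immunoprecipitation (IP).

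L1236 is an established cell line from a patient with Hodgkin lymphoma and has a high level of miR-155. Its cells were transduced either with the empty pMSCV-PIG retroviral vector (EV cells) or with a vector that expresses a sponge transcript with repeated binding sites for miR-155 (sponge cells), and cells of both populations were sorted for GFP, so both carried the vector backbone. From each population total RNA (T) and the RNA bound to Ago2 (IP) were each labelled in Cy3 and in Cy5 and hybridised to 4 two-colour arrays, giving 8 channels for 4 RNA samples. With these cells the study asked which mRNAs leave Ago2 when miR-155 is held by the sponge. It reported that miR-155 targets were only mildly reduced in the IP of its Hodgkin sponge cells. For this the study proposes that the sponge did not capture all of the abundant miR-155. Mature miR-155 was not measured on these arrays, and how much of it the sponge held was not analysed here.

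The sequence of the miRNA that the sponge binds is printed because the comparison of sponge with EV cells rests on it. The RefSeq mature miRNA (GRCh38.p14, chr21:25573983-25574006, plus strand, 24 bases) has its seed, bases 2 to 8, in capitals.
hsa-miR-155-5p: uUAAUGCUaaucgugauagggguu
An mRNA site that pairs with this seed reads AGCAUUA. The transcripts of the TNF family genes were not searched for it, and no probe sequences were used here.

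Each group was 1 RNA sample, so no test between groups was possible and no p-value is given. Values are quantile-normalised signals on the log2 scale. An IP/T value is the log2 difference between IP and total RNA on the same array, given as the mean ± SD over the 2 dye orientations (n = 2). A sponge minus EV value is the log2 difference between the 2 cell populations in one kind of RNA, given as the mean ± SD over Cy3 and Cy5 (n = 2). These SDs cover labelling and hybridisation only, not the spread between cultures or immunoprecipitations. Fewer cells expressing a gene and less of its RNA per cell cannot be told apart in these bulk samples, and a control immunoprecipitation was not analysed here. The share of spots well above background was lowest in the Cy5 channel of sponge total RNA, at 54.1%, and lay between 61.0% and 65.7% in the other 7 channels. All 6 Hodgkin cell markers on the list (TNFRSF8, IRF4, FSCN1, CCL17, CCL22 and TRAF1) were well above background in all 8 channels. So were the B lineage markers CD79A, CD79B and BLK, CD3E and CD4 of the 5 T cell markers and CD14 and CSF1R of the 3 monocyte markers on the array. MS4A1, CD3D, CD3G and LYZ were well above background in no channel. The samples came from a single sorted cell line, so these signals are not read as a share of other cell types. Their source was not tested.

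Of the 47 probes, 28 were kept for 24 genes, or 59.6%, against 54.8% of all 41000 probes. The other probes either did not reach the minimum of 4 channels well above background (16 probes) or differed by over 2-fold between Cy3 and Cy5 in one of the RNA samples (3 probes). The 14 probes that were well above background in no channel made up 29.8% of the family, beside 29.9% of all probes. At the level of genes, 10 had no probe well above background in any channel. These were the ligands TNFSF8 (CD30 ligand), TNFSF11 (RANK ligand), TNFSF12 (TWEAK) and TNFSF18 (GITR ligand), the receptors TNFRSF4 (OX40), TNFRSF10C, TNFRSF10D, TNFRSF13B (TACI) and TNFRSF19, and the adaptor TRAF2. TNFSF15 and the decoy receptor TNFRSF11B (osteoprotegerin) each had a probe with 2 such channels and were not kept. TNFRSF10A, a death receptor for TRAIL, and TRAF5 were removed for the gap between dyes.

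**Figure D1:**
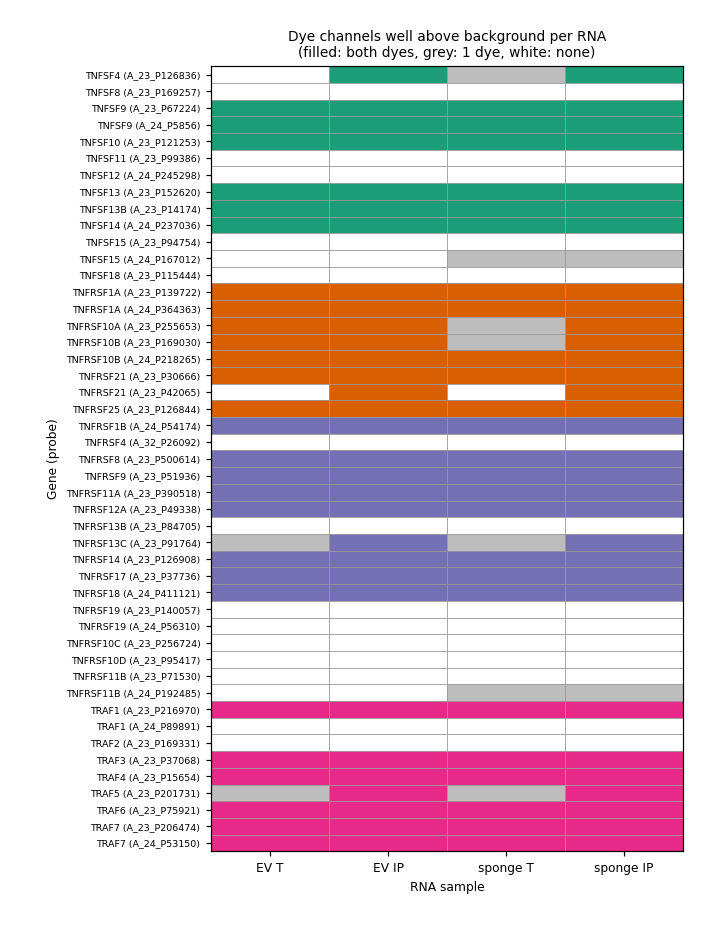
Number of dye channels well above background for each of the 47 probes (one line per probe, ordered by role) in the 4 RNA samples (columns). Coloured cells mark both dyes, grey cells 1 dye and white cells none, with ligands in green, death domain receptors in orange, other receptors in purple (decoys white throughout apart from grey cells of TNFRSF11B) and TRAF adaptors in pink.

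Ligands and receptors of the family were not always both measured. Of all 41000 probes, 19895 were well above background in all 8 channels and passed the dye filter. Of the 47 family probes, 25 did. Several genes recur among the pairs below, so the pairs are not separate observations. Of 18 known ligand and receptor pairs among these genes, 5 had both partners well above background in all 8 channels. These were TNFSF9 (4-1BB ligand) with TNFRSF9 (4-1BB), TNFSF14 (LIGHT) with TNFRSF14 (HVEM), TNFSF10 (TRAIL) with TNFRSF10B, and TNFSF13 (APRIL) and TNFSF13B (BAFF) with TNFRSF17 (BCMA). In 4 pairs the receptor was well above background in all 8 channels and the ligand in none: CD30 without TNFSF8, GITR (TNFRSF18) without TNFSF18, RANK (TNFRSF11A) without TNFSF11, and FN14 (TNFRSF12A) without TNFSF12. In 4 others the ligand was well above background in all 8 channels and the receptor in none, namely TNFSF10 with its decoys TNFRSF10C and TNFRSF10D, and TNFSF13 and TNFSF13B with TNFRSF13B. A transcript that is not well above background has no measured level here and may still be present below the range of the arrays.

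TNFRSF8 mRNA was measured in every channel and was somewhat lower in the IP than in total RNA. The signal of its probe in Cy3 and Cy5 was 14.06 and 13.92 in EV total RNA, 13.91 and 13.89 in sponge total RNA, 13.46 and 13.38 in EV IP RNA and 13.36 and 13.44 in sponge IP RNA (log2). Every IP channel lay below every total RNA channel, and the EV and sponge populations lay within 0.2 of each other in each kind of RNA and dye. IP/T was -0.57 ± 0.16 for EV and -0.50 ± 0.04 for sponge cells (SD, n = 2 dye orientations), which is a ratio of T to IP of 1.48 and 1.42. The mRNA of CD30 was therefore under the 2-fold threshold in either direction, with a sponge minus EV value of -0.09 ± 0.09 in total RNA and -0.02 ± 0.11 in IP RNA.

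**Figure D2:**
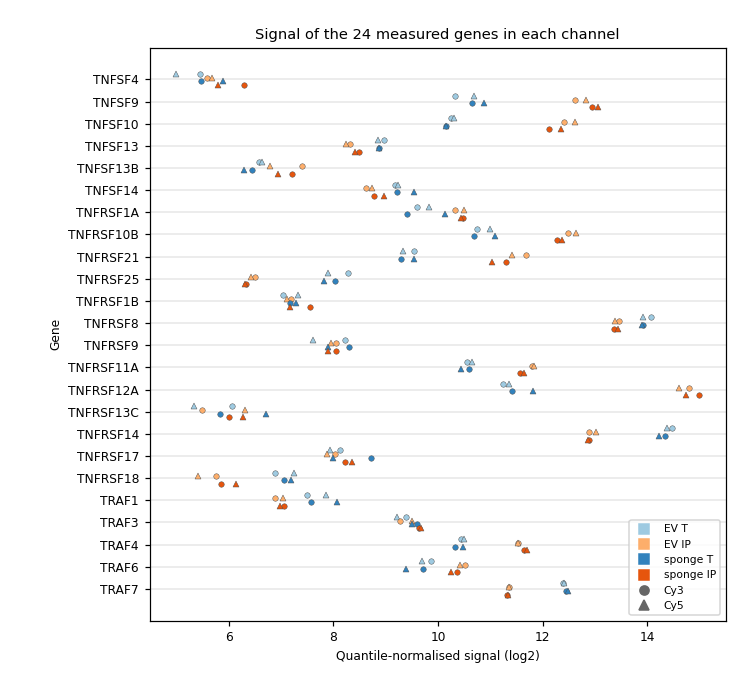
Quantile-normalised signal (x axis, log2) of the 24 genes with a kept probe (y axis, by role), with circles for Cy3 and triangles for Cy5, total RNA in blue, IP RNA in orange, and darker shades for sponge cells. The IP channels of TNFRSF12A, TNFSF9, TNFSF10 and TNFRSF21 lie to the right of their total RNA channels and those of TNFRSF14, TNFRSF25 and TNFRSF18 to the left; levels of different probes are not comparable.

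The study's definition of enrichment with Ago2, IP at least 2-fold above T, was met by 10 of the 28 kept family probes in EV cells, where 17.5% of the 22477 kept probes of the array met it. In sponge cells the count was again 10, beside 17.5% of all kept probes, and the same 10 probes met it in both populations, beside 15.8% of all kept probes. They lay in 8 genes, of which 7 were enriched with their brightest kept probe, TNFRSF1A being the other: the ligands TNFSF9 and TNFSF10, the receptors TNFRSF12A, TNFRSF21, TNFRSF10B, TNFRSF11A and TNFRSF1A, and the adaptor TRAF4. The opposite, a T/IP ratio of at least 2, was met by 5 probes in EV cells (19% of all kept probes) and 4 in sponge cells (17.8% of all kept probes), for TNFRSF25, TNFRSF18, TNFRSF14 and TRAF7. By sign alone, 15 family probes had IP above T on all 4 arrays (35.7% of all kept probes) and 9 had IP below T on all 4 arrays (44.6% of all kept probes). Over the 28 probes the median IP/T was 0.30 (EV) and 0.25 (sponge), against -0.16 and -0.13 over all kept probes. Over the 24 genes, each at its brightest kept probe, it was 0.15 (EV) and 0.12 (sponge).

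The counts and the median IP/T depended on the processing. In 2 alternatives the median spot signals were taken in place of the processed ones, with normexp background correction and an offset of 50, followed by loess and Aquantile or by quantile normalisation, so that several steps changed together. The filters were applied anew there, and 31 family probes were kept in each of the 2. Of these, 6 reached 2-fold enrichment for EV and 6 for sponge cells, beside 8.76% and 6.91% of all kept probes with loess and Aquantile and 7.46% and 6.97% with quantile normalisation. Those 6 probes belonged to TNFRSF12A, TNFSF9, TNFSF10, TNFRSF21 and TNFRSF10B. TNFRSF14 was then the remaining probe with a T/IP ratio of at least 2. Values called normexp below are those with loess and Aquantile.

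**Figure D3:**
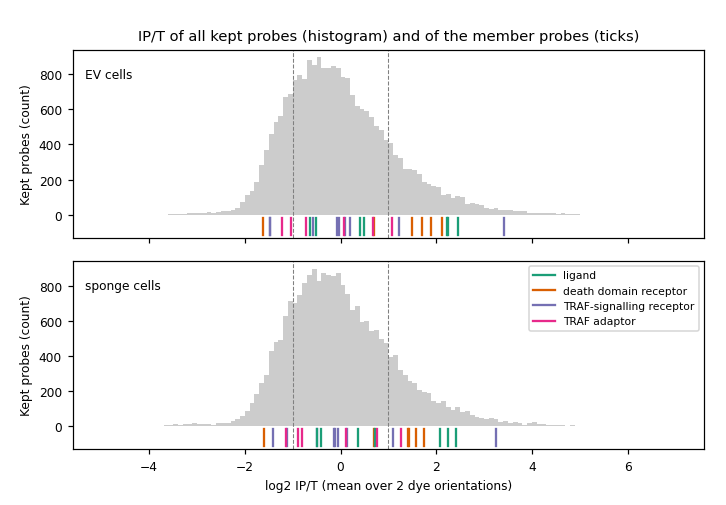
IP/T (x axis, log2, mean over 2 dye orientations) of all 22477 kept probes as a histogram (y axis, count) and of the 28 family probes as ticks coloured by role, for EV cells (upper) and sponge cells (lower). Dashed lines mark a 2-fold difference; 10 ticks lie above the upper line in each panel, and ticks below the lower line number 5 in EV cells and 4 in sponge cells.

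Among the ligands, both kept probes of TNFSF9, the ligand of the T cell costimulatory receptor 4-1BB, were enriched in the IP. Its brighter probe read 10.33 and 10.68 in EV total RNA, 10.66 and 10.87 in sponge total RNA, 12.61 and 12.83 in EV IP RNA and 12.95 and 13.06 in sponge IP RNA. All 4 IP channels were above all 4 total RNA channels. IP/T was 2.22 ± 0.40 for EV and 2.24 ± 0.23 for sponge cells (SD, n = 2), or 4.65-fold and 4.71-fold. The other probe gave 2.46 ± 0.33 and 2.41 ± 0.39.

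TNFSF10 encodes TRAIL, which triggers apoptosis through death receptors. Its signal was 10.24 and 10.30 in EV total RNA, 10.15 and 10.15 in sponge total RNA, 12.41 and 12.62 in EV IP RNA and 12.13 and 12.35 in sponge IP RNA. Again no IP channel overlapped a total RNA channel, and IP/T was 2.25 ± 0.19 in EV cells, or 4.74-fold, and 2.09 ± 0.16 in sponge cells, or 4.25-fold.

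The other ligands stayed within 2-fold between IP and total RNA. TNFSF13B, the B cell survival factor BAFF, was at 0.49 ± 0.37 for EV and 0.72 ± 0.30 for sponge cells, and TNFSF13, the related factor APRIL, lay on the other side of 0 at -0.64 ± 0.13 and -0.42 ± 0.03. TNFSF14, the ligand LIGHT, was at -0.52 ± 0.12 and -0.50 ± 0.38. TNFSF4, the OX40 ligand, was well above background in 5 of the 8 channels. Its channels were 5.46 and 4.99 in EV total RNA, 5.46 and 5.88 in sponge total RNA, 5.57 and 5.68 in EV IP RNA and 6.29 and 5.79 in sponge IP RNA. None of its EV total RNA channels was well above background, so that the EV ratio of IP to T is only a bound. That bound, at least 1.07-fold, was computed with normexp and not from the channel values given here.

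Death domain receptors ranged from enriched in the IP to lower in it. TNFRSF21 (death receptor 6) stood at 9.54 and 9.33 in EV total RNA, 9.30 and 9.54 in sponge total RNA, 11.68 and 11.41 in EV IP RNA and 11.31 and 11.04 in sponge IP RNA. Its IP channels were all above its total RNA channels, with IP/T of 2.12 ± 0.34 in EV cells, or 4.33-fold, and 1.75 ± 0.02 in sponge cells, or 3.37-fold. With normexp they were 1.58 and 1.03, still above 2-fold. TNFRSF10B, the TRAIL receptor DR5, had 2 kept probes. The brighter one was at 10.74 and 11.00 in EV total RNA, 10.68 and 11.10 in sponge total RNA, 12.49 and 12.64 in EV IP RNA and 12.28 and 12.37 in sponge IP RNA, with IP/T of 1.70 ± 0.29 for EV and 1.44 ± 0.36 for sponge cells and no overlap between IP and total RNA. The dimmer one gave 1.49 ± 0.42 and 1.41 ± 0.62, and with normexp 0.43 and 0.29.

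TNFRSF1A, the main receptor for TNF, was the gene whose kept probes were over 1 apart in log2 IP/T. Both probes were assigned to the same RefSeq transcript. The brighter probe gave 0.70 ± 0.27 for EV and 0.69 ± 0.47 for sponge cells, under the 2-fold threshold, and the dimmer probe gave 1.89 ± 0.02 and 1.58 ± 0.14, above it. The gap between them was 1.19 (EV) and 0.89 (sponge). With normexp the dimmer probe was at 0.98 and 0.66, below the threshold. No enrichment is given for the gene as a whole.

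TNFRSF25 (death receptor 3) was at the other end, lower in the IP. Its channels were 8.28 and 7.90 in EV total RNA, 8.03 and 7.82 in sponge total RNA, 6.50 and 6.42 in EV IP RNA and 6.34 and 6.30 in sponge IP RNA, and the IP and total RNA channels did not overlap. IP/T was -1.63 ± 0.32 in EV cells, a T/IP ratio of 3.1, and -1.61 ± 0.17 in sponge cells, a T/IP ratio of 3.05. This difference kept its sign but not its size with normexp, at -0.28 and -0.03.

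The highest IP/T value of the 28 family probes was that of TNFRSF12A, which encodes FN14, the receptor for TWEAK. Its probe read 11.24 and 11.37 in EV total RNA, 11.41 and 11.81 in sponge total RNA, 14.81 and 14.61 in EV IP RNA and 15.00 and 14.75 in sponge IP RNA. All its IP channels were above all its total RNA channels. IP/T was 3.41 ± 0.05 for EV and 3.26 ± 0.11 for sponge cells (SD, n = 2), or 10.6-fold and 9.57-fold. For the sponge cells it lay between 2.93 and 3.58 over 13 alternative settings, including a setting chosen after seeing the data. By comparison, the 95th percentile of IP/T over all kept probes was 2.13 (EV) and 2.11 (sponge).

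TNFRSF11A (RANK) was enriched more weakly, at 1.22 ± 0.09 for EV and 1.09 ± 0.04 for sponge cells, and with normexp it was below 2-fold, at 0.94 and 0.80. Several TRAF-binding receptors of lymphocytes had IP and total RNA at about the same signal. TNFRSF9 was at 0.10 ± 0.50 for EV and -0.12 ± 0.40 for sponge cells, and TNFRSF1B, the second TNF receptor, at -0.03 ± 0.15 and 0.13 ± 0.18. For these 2 genes the SD over orientations was as large as the value or larger. TNFRSF13C, the BAFF receptor, was well above background in 6 of the 8 channels and its sponge IP/T of -0.15 ± 0.82 differed widely between dye orientations, with 0.20 ± 0.06 in EV cells.

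TNFRSF17 (BCMA) is a receptor of plasma cells. Its signal was 8.13 and 7.93 in EV total RNA, 8.72 and 7.99 in sponge total RNA, 8.04 and 7.88 in EV IP RNA and 8.23 and 8.36 in sponge IP RNA. The IP and total RNA channels overlapped, and IP/T was -0.07 ± 0.26 for EV and -0.06 ± 0.42 for sponge cells.

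TNFRSF14, the herpesvirus entry mediator that binds LIGHT, was lower in the IP than in total RNA. It read 14.48 and 14.37 in EV total RNA, 14.33 and 14.22 in sponge total RNA, 12.89 and 13.03 in EV IP RNA and 12.89 and 12.86 in sponge IP RNA. IP/T was -1.47 ± 0.02 for EV and -1.40 ± 0.10 for sponge cells, a T/IP ratio of 2.77 and 2.65 with no overlap. Its T/IP ratio stayed above 2 with normexp, at IP/T -1.27 and -1.32.

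TNFRSF18, the costimulatory receptor GITR, was also lower in the IP. It read 6.88 and 7.24 in EV total RNA, 7.05 and 7.20 in sponge total RNA, 5.75 and 5.41 in EV IP RNA and 5.85 and 6.14 in sponge IP RNA. IP/T was -1.48 ± 0.01 for EV and -1.13 ± 0.32 for sponge cells, and -0.21 and -0.13 with normexp.

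**Figure D4:**
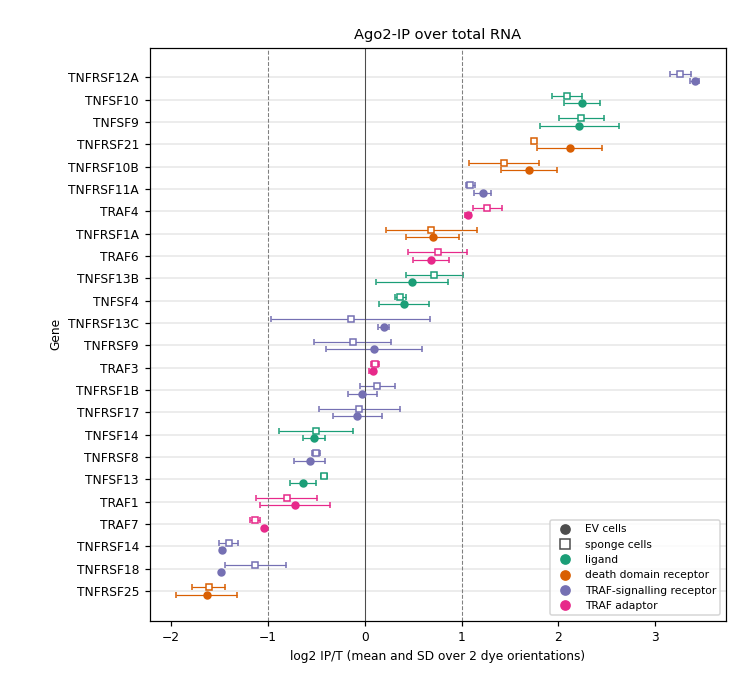
IP/T (x axis, log2) of the 24 genes (y axis, sorted by the EV value), with filled circles for EV cells, open squares for sponge cells, bars for the SD over the 2 dye orientations and colours for roles. Dashed lines mark 2-fold; TNFRSF12A lies above 3 in both populations, and the EV and sponge symbols of each gene lie within 0.4 of each other.

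The TRAF adaptors gave smaller ratios. TRAF4 was above 2-fold, at 1.06 ± 0.03 for EV and 1.27 ± 0.15 for sponge cells, but at 0.96 and 0.96 with normexp. TRAF6, a ubiquitin ligase that also acts below Toll-like and interleukin-1 receptors, was at 0.69 ± 0.19 and 0.75 ± 0.30. TRAF3, which restrains the noncanonical NF-κB pathway, was at 0.08 ± 0.04 and 0.10 ± 0.04.

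TRAF1, an NF-κB target that is abundant in Hodgkin cells, was lower in the IP. Its kept probe read 7.50 and 7.86 in EV total RNA, 7.57 and 8.08 in sponge total RNA, 6.88 and 7.03 in EV IP RNA and 7.05 and 6.99 in sponge IP RNA. IP/T was -0.72 ± 0.36 for EV and -0.80 ± 0.31 for sponge cells, below the 2-fold threshold. The second TRAF1 probe was well above background in no channel, though it was assigned to the same RefSeq transcript.

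TRAF7, the most distant relative among the TRAF proteins, was lower in the IP with both probes. The brighter one read 12.39 and 12.40 in EV total RNA, 12.44 and 12.48 in sponge total RNA, 11.37 and 11.36 in EV IP RNA and 11.31 and 11.35 in sponge IP RNA, and the 4 channels of each kind of RNA lay within 0.1 of each other. IP/T was -1.03 ± 0.002 for EV and -1.13 ± 0.05 for sponge cells. The dimmer probe gave -1.22 ± 0.03 and -0.89 ± 0.01. With normexp the brighter probe was at -0.75 and -0.84, under 2-fold.

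Comparing sponge with EV cells, none of the 28 family probes was at least 1.5-fold apart with one sign in both dyes in total RNA, where 2.91% of all kept probes were, and none in IP RNA, where 1.5% were. No family probe was enriched in one population with an IP/T ratio at least 2-fold lower in the other, beside 0.2% of all kept probes. In total RNA 11 family probes were higher in sponge cells in both dyes (28.5% of all kept probes) and 8 were lower (33.4% of all kept probes). In IP RNA 11 were higher (37.8% of all kept probes) and 9 lower (35.7% of all kept probes). The change in IP/T was above 0 in both dye orientations for 5 family probes (35.1% of all kept probes) and below 0 for 10 (28.9% of all kept probes), and its median was 0.0031 over the family against 0.017 over all kept probes.

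In total RNA the values of TNFRSF17, TNFRSF12A and TNFSF9 were furthest from 0 among the brightest kept probes of the genes. This ranking took probes measured in all channels concerned with one sign in both dyes. TNFRSF17 was at 0.32 ± 0.37, with 0.58 in Cy3 and 0.06 in Cy5, so that the SD was larger than the value. TNFRSF12A was at 0.31 ± 0.19 and TNFSF9 at 0.26 ± 0.10 and 0.32 ± 0.18 with its 2 probes. TRAF3 was at 0.24 ± 0.05. On the lower side were TNFSF13B at -0.24 ± 0.16, TRAF6 at -0.23 ± 0.10 and TNFRSF25 at -0.16 ± 0.12. With normexp TRAF3 was at 0.02, TRAF6 at -0.06 and TNFSF13B at 0.05, on the other side of 0. TNFRSF17 was then at 0.16, TNFRSF12A at 0.24, TNFSF9 at 0.21 with its brighter probe and TNFRSF25 at -0.16. The probes of TRAF7 did not have one sign, with 0.07 ± 0.02 for the brighter and -0.38 ± 0.23 for the dimmer.

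In IP RNA the values furthest from 0 were those of TNFRSF18, TNFSF4 and TNFRSF21. TNFRSF18 was at 0.41 ± 0.45 and TNFSF4 at 0.41 ± 0.43, both with an SD above the value. TNFRSF21 was lower in sponge cells by nearly the same amount in Cy3, -0.37, and in Cy5, -0.38. Below 0 in both dyes were also TNFSF10 at -0.28 ± 0.01, TNFRSF11A at -0.21 ± 0.03 and TRAF6 at -0.17 ± 0.01. For TNFRSF10B the brighter probe was at -0.24 ± 0.04, below 0 in both dyes, and the dimmer probe at -0.06 ± 0.22, with -0.21 in Cy3 and 0.10 in Cy5. The brighter probe of TNFRSF1A was at 0.05 ± 0.15, with opposite signs in the 2 dyes. TNFSF9 was higher in sponge IP RNA, at 0.28 ± 0.08 and 0.27 ± 0.11, by about as much as in total RNA, and TRAF3 was at 0.27 ± 0.13.

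**Figure D5:**
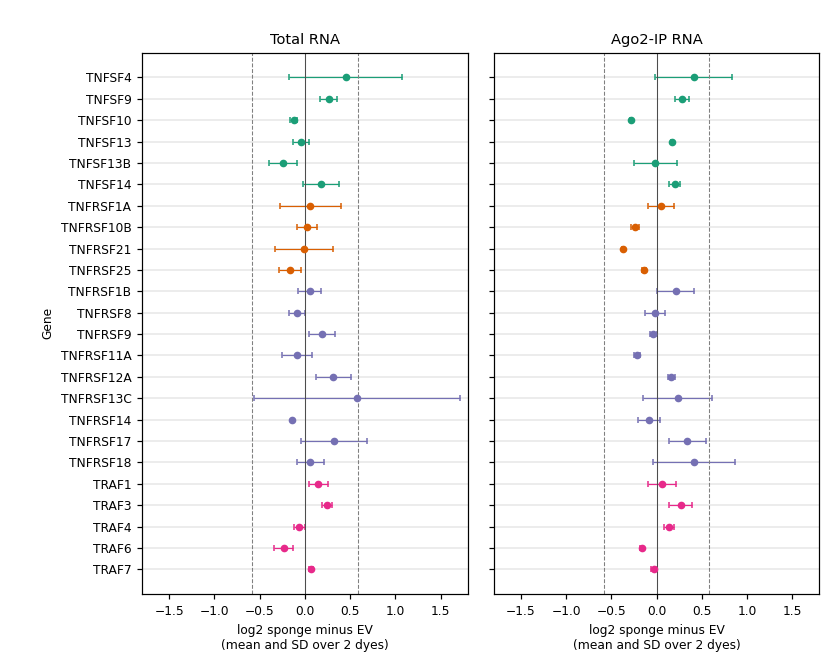
Sponge minus EV difference (x axis, log2) of the 24 genes (y axis, by role) in total RNA (left) and IP RNA (right), as mean and SD over the 2 dyes. Dashed lines mark 1.5-fold; every mean lies inside them, and TNFRSF13C, whose total RNA value is 0.58 ± 1.14, and TNFSF4 have the widest bars in total RNA.

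The change in IP/T between the populations was furthest from 0 for TNFRSF21, TNFRSF18 and TNFRSF10B among the brightest kept probes of the genes, measured in all 8 channels with one sign in both orientations. It was -0.36 ± 0.32 for TNFRSF21, 0.35 ± 0.30 for TNFRSF18 and -0.26 ± 0.07 for TNFRSF10B (SD, n = 2). With normexp it was -0.55 for TNFRSF21 and -0.30 for TNFRSF10B, but only 0.08 for TNFRSF18. For TNFRSF10B the dimmer probe gave -0.08 ± 0.20, a value within its SD of 0. The dimmer probes of TRAF7, at 0.33 ± 0.02, and TNFRSF1A, at -0.32 ± 0.12, were further from 0 than TNFRSF10B, while their brighter probes were at -0.10 ± 0.05 and -0.01 ± 0.19. TNFSF10 was at -0.16 ± 0.03. TNFRSF12A, with the highest IP/T, was at -0.15 ± 0.15, and CD30 at 0.07 ± 0.20. 

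The family members that carry other symbols, and the proteins that work with the receptors and TRAFs, were counted in the same way. Of 50 such genes listed, 48 were on the array and 39 had a kept probe, of which 14 (EV) and 13 (sponge) reached 2-fold enrichment and 4 in each population reached a T/IP ratio of 2. Over all kept probes these shares were 17.5% in each population for enrichment and 19% (EV) and 17.8% (sponge) for the opposite. The 39 genes were counted at their brightest kept probe, while the shares are of probes. Their values were not recomputed with normexp, where fewer family probes reached the thresholds. The median IP/T of the 39 genes was 0.12 in EV cells, against -0.16 over all kept probes. Of the 8 kept family members under other names, FAS, the prototype death receptor, was at 2.02 ± 0.07 for EV and 1.84 ± 0.11 for sponge cells. TNF itself was at 1.43 ± 0.26 and 1.28 ± 0.12, and CD70, the ligand of CD27, at 1.40 ± 0.02 and 1.37 ± 0.15. CD40, CD27, LTA, LTB and RELT were within 2-fold between IP and total RNA, while CD40LG and FASLG, ligands of activated T cells, were well above background in no channel.

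Among 31 kept signalling partners, 11 reached 2-fold enrichment in EV cells, where 17.5% of all kept probes did. The regulators of ubiquitin at the receptors among them were BIRC3 at 3.31 ± 0.01, BIRC2 at 1.73 ± 0.38, UBE2N at 2.06 ± 0.13, TNFAIP3 at 1.28 ± 0.22 and SPATA2 at 2.09 ± 0.31. The kinases MAP3K5 (1.69 ± 0.18), MAP3K7 (1.11 ± 0.20) and MAP3K14 (1.60 ± 0.04) and the TAK1-binding protein TAB2 (3.58 ± 0.29) were others, as were TNIP2 (1.37 ± 0.24) and USP2 (1.12 ± 0.07). USP2 was the gene of these that was below 2-fold in sponge cells, at 0.997 ± 0.30. Lower in the IP by at least 2-fold were the adaptor TRADD at -1.30 ± 0.08, the ubiquitin ligase subunit RBCK1 at -1.48 ± 0.10, TRAIP at -2.02 ± 0.13 and TRAF3IP3 at -1.17 ± 0.51. None of the 39 genes was at least 1.5-fold apart between sponge and EV cells with one sign in both dyes, in total RNA (2.91% of all kept probes) or in IP RNA (1.5%).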

How the data were processed

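RNA of L1236 cells was measured in 8 channels of 4 two-colour Agilent arrays on 1 slide. The deposited scanner files hold processed signal intensity values, background-subtracted and dye-normalised by Agilent Feature Extraction (version 10.7.3.1 per the file headers, 10.5.1.1 per the labels). The deposited value table holds the authors' quantile-normalised log2 values and served as an alternative. Here the spots of a probe were averaged and log2 intensities quantile-normalised over the 8 channels (Python 3.11.15, pandas 2.3.3, numpy 2.4.6). After the study's methods, probes were kept if well above background in at least 4 channels and with Cy3 and Cy5 within 2-fold in each RNA, and the dyes were averaged. Of 41000 probes, 60 had no value, 25837 passed detection and 22477 were kept. No family spot was saturated. The Cy3 and Cy5 labels of an RNA counted as 1 sample, so groups could not be tested, and precision is limited by having 4 arrays. A bound ("at least") was computed from the normexp values with loess and Aquantile. It sets a group that is not well above background at the higher of the probe's own signal and the lowest signal well above background on that channel.

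Probes were named through the RefSeq gene table (GRCh38.p14), without its coordinates, since the array annotation uses another build. A gene was represented by its brightest kept probe. Channel values are given for TNFRSF8, the 5 highest and 5 lowest IP/T values in EV cells, the 5 highest total RNA signals and the 3 largest sponge minus EV differences of each kind. Other probes of a gene are given where log2 IP/T differed by over 1 or where they bear on a statement. The members and gene lists were chosen with earlier results of these data known. Alternatives covered normexp with an offset of 50 (R 4.3.3, limma 3.58.1, on median signals), 75th percentile scaling, the detection and dye filters, single dyes and single orientations. The calculation was tested on simulated data. One listed marker gene is not reported here.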

Additional observations from a re-analysis of the deposited data

Results flagged for a closer look

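Signal was present in family probes that the comparisons do not use, because their Cy3 and Cy5 values differed by over 2-fold in at least 1 RNA sample. The medians of the negative control probes lay between 8.00 and 10.98 on the linear scale of processed intensity. TRAF5, an adaptor of CD40 and other lymphocyte receptors, had a mean processed intensity of 120.9 in EV IP RNA, with both dyes near it (118.3 and 123.6), and 91.1 in sponge IP RNA. Its total RNA channels were well above background in 1 of 2 dyes in each population. The second probe of TNFRSF21 had 135.3 in EV IP RNA and 107.1 in sponge IP RNA and was not well above background in total RNA. Its IP/T ratio is therefore only a bound, computed with normexp and not from these intensities. That bound was 1.22-fold or more in EV cells and 1.19-fold or more in sponge cells. The probe of TNFRSF10A had a mean of 164.1 in EV total RNA, made up of 278.9 in Cy3 and 49.4 in Cy5, so its level there has no single value. In EV IP RNA it had 50.8 in Cy3 and 214.8 in Cy5, also over 2-fold apart. The higher channels of these RNA samples were on the same array. The means of 120.9, 135.3 and 164.1 were above the control level in the RNA samples named, and their cause was not tested.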

How the results depend on the processing

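The counts and single-gene values were recomputed under 13 alternatives and 1 more, chosen after seeing the data, which left out the sponge total RNA channel in Cy5. Among the 13, taking the probe with the highest IP/T for a gene applied only to the counts of enriched genes. No gene at or past 2-fold between IP and total RNA with its brightest kept probe changed the sign of its IP/T. Differences near 0 did take both signs, as the change in IP/T of TNFRSF17 did, from -0.39 to 0.43. With normexp, loess and Aquantile 31 family probes were kept. Those with an IP/T ratio of at least 2 numbered 6 in EV cells and 6 in sponge cells, those with a T/IP ratio of at least 2 numbered 1 and 1, and the median change in IP/T was -0.0407, against 0.0031 as reported. Quantile normalisation after normexp gave 6, 6, 1 and 1 for these counts. Probes at least 1.5-fold apart in total RNA numbered 2 without the dye filter, 2 with Cy5 labels only (TNFRSF13C at 1.38 and TNFSF4 at 0.89) and 1 with the sponge total RNA channel in Cy5 left out (TNFRSF17 at 0.68). In IP RNA they numbered 1 without the dye filter, 1 with Cy3 labels only (TNFSF4 at 0.71) and 1 with Cy5 labels only (TNFRSF18 at 0.74). Within 1 kind of RNA, the settings with a single orientation use the same channels as those with a single dye and repeat these counts. With a single dye, or with that channel left out, the rule of one sign in both dyes could not apply. These counts therefore follow a looser rule than the main ones. The median change in IP/T was -0.0608 with Cy5 labels only, -0.0276 on the arrays with IP in Cy5, -0.0625 on those with IP in Cy3 and 0.0548 with the Cy5 channel of sponge total RNA left out. Over all kept probes the medians in the same order were 0.0532, 0.0091, 0.0326 and about 0. With normexp, loess and Aquantile the median over all kept probes was -0.0239. Of the single-gene values, 1319 moved by no more than the SD over dyes and 206 moved by more. Part of the first count was fixed in advance. A change of the detection or dye filter left each kept value as it was, and a single orientation always lay within that SD of the mean. The 2 counts therefore do not measure how stable the values are. Leaving out a biological replicate was not run, since each group is 1 RNA sample. No paired analysis was possible because the numbers shared by the groups are the 2 dyes of 1 RNA sample. A single RNA per group gives no spread between cultures, and the ratios of probes near background are bounds.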
